A study of Mus musculus with 12 samples.

Results

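The enzymes that build the lipids of myelin were examined as a group of 10 genes, Sptlc2, Degs1, Cers2, Elovl1, Elovl7, Fa2h, Ugt8a, Gal3st1, Galc and Aspa, out of 18820 genes measured in the nucleus accumbens of adult mice. The genes were taken by name, and each was read from the array row whose platform annotation gives that gene symbol alone. All 10 had such a row, with 1 row each. The 12 arrays came from C57BL/6N offspring aged 12 weeks. Of these, 6 were born to mothers given poly(I:C), a viral mimetic made of double-stranded RNA, at 5 mg/kg into a vein on gestation day 17, and are called the exposed group here. The other 6, the controls, were born to mothers given saline at that time. Both groups had gone through behavioural tests before the accumbens, core and shell together, was dissected. Levels are log2 values from Affymetrix Mouse Gene 1.1 ST array strips, so a difference of -1 is a halving. The labels give neither sex nor litter, so the tests treat the animals as independent and cover only the spread between them.

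Myelin is the lipid-rich sheath that oligodendrocytes wrap around axons, and it is unusually rich in galactosylceramide and its sulfated form, sulfatide. Their synthesis starts with serine and a fatty acid, passes through dihydroceramide and ceramide carrying very long fatty acids, and ends with the addition of galactose and then sulfate. Oligodendrocytes express several of these enzymes far more strongly than neurons do, and mice that lack the galactose-adding enzyme form unstable myelin. The accumbens is grey matter crossed by myelinated fibres.

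No enzyme passed the threshold of an adjusted p under 0.05 in the limma fit over all 21218 rows, where 0.0613% of rows passed. The mean of the exposed group was the lower one for 8 of the 10 enzymes, and the median difference was -0.12. Of all tested rows 49.1% were lower in value, with a median difference of 0.0016. An unadjusted limma p under 0.05 was reached by 5 enzymes, all lower (Degs1, Aspa, Elovl7, Cers2 and Ugt8a), where 14.4% of all rows reached it in either direction, 6.57% as lower and 7.83% as higher. Only Degs1 had groups that did not overlap, with every exposed array below every control array. Of all rows, 0.523% showed that pattern in that direction. Of the 10 rows, 9 had a mean above the median level of all tested rows, 5.47, and Gal3st1 lay just under it with a mean of 5.38.

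**Figure D1:**
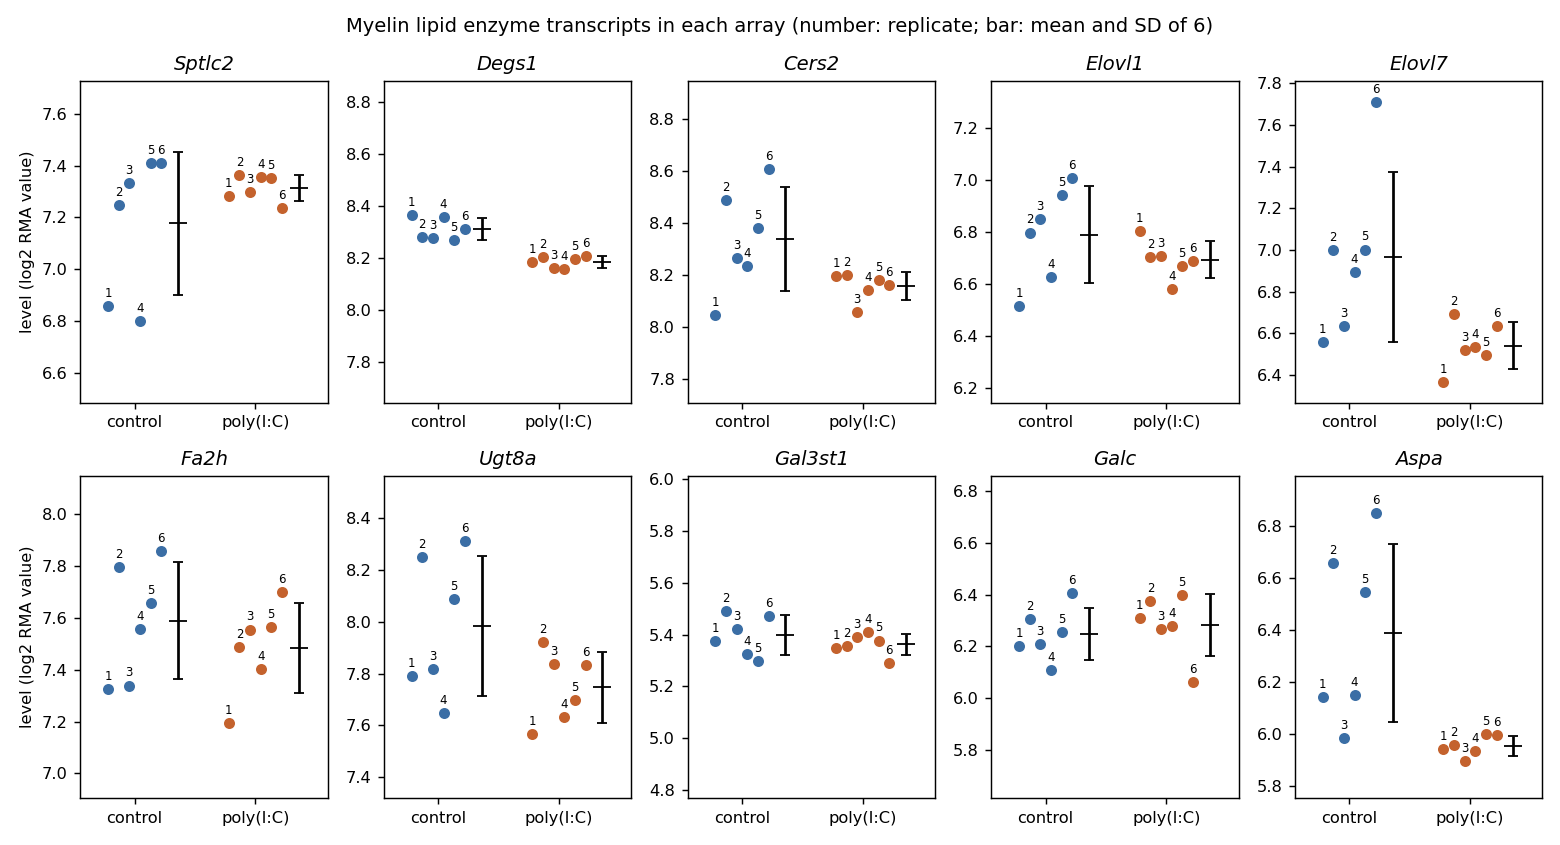
Level of each enzyme transcript (log2 RMA value, vertical axis, each panel with its own range) in the 6 control and 6 exposed arrays. Points are single arrays with their replicate number, and bars give the mean and SD of 6. Degs1 is the panel where the groups do not overlap, and in most panels the control points are more spread than the exposed points.

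**Figure D2:**
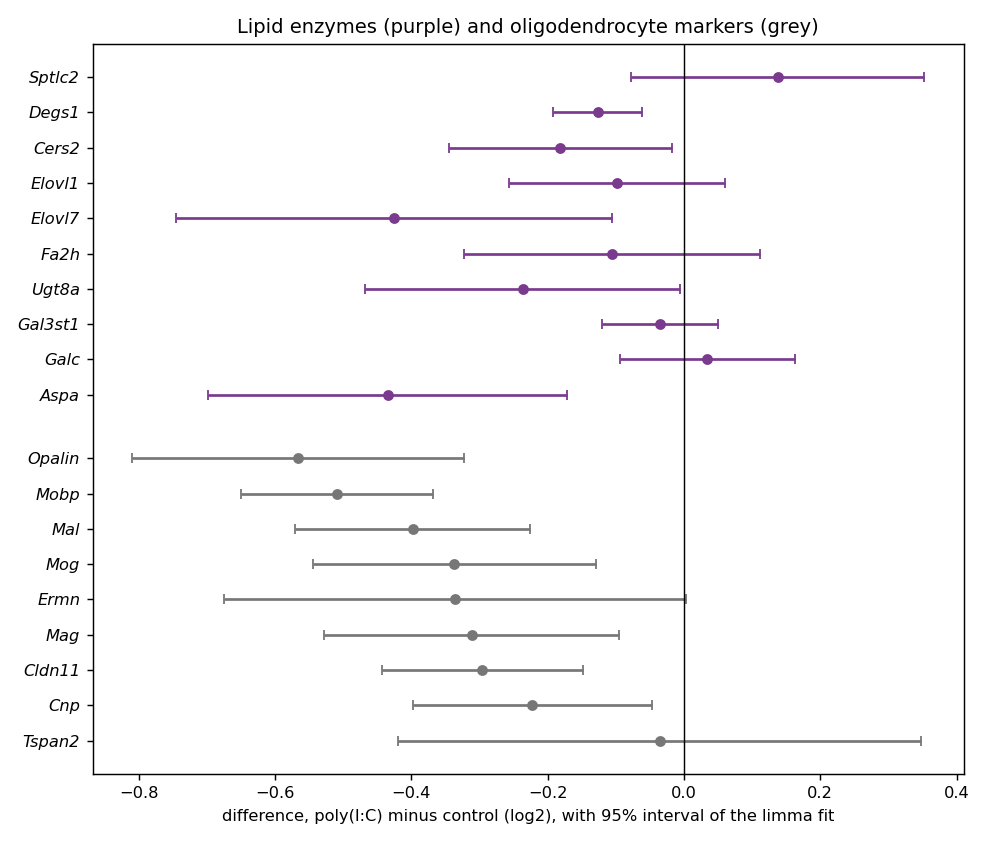
Log2 difference in level (exposed group minus control group) with the 95% interval of the limma fit, for the 10 enzymes (purple) and 9 oligodendrocyte markers (grey). Intervals of 5 enzymes lie wholly below 0, and so do those of 7 of the 9 markers.

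The promoters of the 3 enzymes with the smallest unadjusted p are shown because these genes carry the clearest lower values and each has a single start listed by RefSeq (build GRCm38.p6). Each sequence covers the 250 bases before the start, 5′ to 3′ on the strand of the gene. Capitals mark matches to the E-box pattern CANNTG, which is recognised by basic helix-loop-helix factors, a class that includes the oligodendrocyte factors Olig1 and Olig2.
Aspa, minus strand, chr11:73324638-73324887: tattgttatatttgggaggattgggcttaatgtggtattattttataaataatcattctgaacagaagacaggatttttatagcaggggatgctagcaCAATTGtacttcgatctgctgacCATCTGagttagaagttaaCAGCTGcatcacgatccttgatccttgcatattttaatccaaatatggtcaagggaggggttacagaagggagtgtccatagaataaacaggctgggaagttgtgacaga
Elovl7, plus strand, chr13:108214154-108214403: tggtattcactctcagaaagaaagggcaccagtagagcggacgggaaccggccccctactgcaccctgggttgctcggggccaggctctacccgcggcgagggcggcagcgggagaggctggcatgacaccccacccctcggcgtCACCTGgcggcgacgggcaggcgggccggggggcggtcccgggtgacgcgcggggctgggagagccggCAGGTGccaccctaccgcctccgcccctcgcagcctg
Degs1, minus strand, chr1:182282196-182282445: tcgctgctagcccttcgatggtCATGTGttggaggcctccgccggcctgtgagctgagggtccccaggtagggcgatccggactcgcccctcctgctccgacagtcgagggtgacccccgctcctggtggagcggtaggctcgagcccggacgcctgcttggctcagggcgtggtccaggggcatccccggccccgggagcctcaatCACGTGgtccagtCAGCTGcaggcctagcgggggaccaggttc

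The Aspa promoter is poor in G and C (38.8%), whereas those of Elovl7 and Degs1 hold 73.6% and 69.6%, beside a median of 52.4% over all 32851 listed promoters. Promoters were listed for 9 of the 10 enzymes, 13 in all, with 3 for Gal3st1 and 2 each for Cers2 and Elovl1. Of these 13, 10 held CANNTG (76.9%), beside 66.2% of all promoters in the same window. The SOX core ACAAAG was in 0 of 13 (16.5% of all) and ACAATG in 2 of 13 (10.7%), both being overlapping promoters of Gal3st1. Letters that the myelin factor Myrf is known to bind, CTGGCAC and CTGGTAC, were in 0 of 13 (4.19% and 1.83% of all). The GC box GGGCGG was in 7 of 13 (32.7%) and CCAAT in 6 of 13 (33.8%). Both strands were searched, and none of the 18 E-box matches overlapped another motif. A match is a run of letters in this window and says nothing of binding.

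Synthesis starts with serine palmitoyltransferase, of which Sptlc2 is a catalytic subunit. Sptlc2 ran from 6.80 through a median of 7.29 to 7.41 in controls and from 7.24 through 7.32 to 7.36 in exposed offspring. Controls 4 and 1 stood far below the other arrays, at 6.80 and 6.86, and all exposed values lay inside the control range. At 0.14 (95% interval -0.08 to 0.35, limma adjusted p = 0.560) its difference was the highest of the 10. It was 0.074 without control 1 and 0.062 without control 4. Sptlc1, the partner subunit, was low in the same 2 arrays (5.98 in control 1 and 5.88 in control 4, with a control mean of 6.22), and its difference was 0.19 (limma adjusted p = 0.351).

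Degs1, the desaturase that turns dihydroceramide into ceramide, had the smallest p of the group and the narrowest spread. Its levels ran from 8.27 through 8.30 to 8.37 in controls and from 8.16 through 8.19 to 8.21 in exposed offspring. The groups did not overlap, although the gap between the lowest control and the highest exposed array was narrow. The mean went from 8.31 ± 0.04 to 8.18 ± 0.02 (SD, n = 6 arrays per group), a difference of -0.13 (95% interval -0.19 to -0.06), or 0.916 times the control level on the linear scale. The limma adjusted p was 0.104, so the change did not pass over all genes. Over 22 alternative settings the difference stayed between -0.15 and -0.11, with adjusted p-values from 0.0760 to 0.483, and the unadjusted p was under 0.05 in all 22.

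Cers2, the ceramide synthase that attaches very long fatty acids and is abundant in oligodendrocytes, ran from 8.05 through 8.32 to 8.61 in controls and from 8.06 through 8.17 to 8.20 in exposed offspring. Control 1 was the lowest of all 12 arrays, and the exposed arrays sat in the lower part of the control range. The difference was -0.18 (95% interval -0.34 to -0.02, limma adjusted p = 0.302), or 0.882 times the control level. Its unadjusted limma p was under 0.05 in 13 of 22 settings, and ended at 0.0755 without control 2 and 0.0743 without control 6.

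The fatty acids that Cers2 uses are made by elongases. Elovl7, which lengthens long saturated chains, ran from 6.56 through 6.95 to 7.71 in controls and from 6.37 through 6.53 to 6.69 in exposed offspring. Control 6 stood well above every other array, and 4 exposed arrays were below the lowest control. The difference was -0.43 (95% interval -0.74 to -0.11, limma adjusted p = 0.227), or 0.745 times the control level, and it was -0.28 without control 6. Elovl1, which makes saturated and monounsaturated very long chains, ran from 6.52 through 6.82 to 7.01 in controls and from 6.58 through 6.70 to 6.80 in exposed offspring. All 6 exposed values lay within the control range, and its difference, -0.10 (95% interval -0.26 to 0.06, limma adjusted p = 0.576), was under the control SD of 0.19. Without control 1 it was -0.15 (limma adjusted p = 0.270, unadjusted 0.0287), and without control 6 it was -0.054.

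Fa2h adds a hydroxyl group to the fatty acid, a feature of myelin galactolipids. It ran from 7.33 through 7.61 to 7.86 in controls and from 7.19 through 7.52 to 7.70 in exposed offspring. The groups overlapped broadly, and the difference was -0.11 (95% interval -0.32 to 0.11, limma adjusted p = 0.673). It was -0.064 without control 2, -0.052 without control 6 and -0.048 without exposed array 1.

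Ugt8a transfers galactose to ceramide and so makes galactosylceramide. It ran from 7.65 through 7.95 to 8.31 in controls and from 7.57 through 7.76 to 7.92 in exposed offspring. Controls 6, 2 and 5 were the highest of all arrays, whereas controls 1, 3 and 4 lay among the exposed values. The difference was -0.24 (95% interval -0.47 to -0.01, limma adjusted p = 0.336), or 0.849 times the control level. Its unadjusted limma p rose above 0.05, up to 0.110, when control 2, 5 or 6 or exposed array 1, 4 or 5 was left out singly.

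Neither enzyme that acts on galactosylceramide after that step showed a difference beyond the spread. Gal3st1, the sulfotransferase that makes sulfatide, ran from 5.30 through 5.40 to 5.49 in controls and from 5.29 through 5.37 to 5.41 in exposed offspring. Its difference was -0.036 (95% interval -0.12 to 0.05, limma adjusted p = 0.728). Galc, the lysosomal enzyme that breaks galactosylceramide down and is lost in Krabbe disease, ran from 6.11 through 6.23 to 6.41 in controls and from 6.06 through 6.29 to 6.40 in exposed offspring. Its difference was 0.034 (95% interval -0.09 to 0.16, limma adjusted p = 0.842). Both enzymes had overlapping groups, and the exposed Gal3st1 values covered a narrower range. Single arrays moved both differences by over 1.5 times. Gal3st1 was at -0.017 without control 2, -0.021 without control 6 or exposed array 6, and -0.055 without control 5. Galc was at 0.0069 without control 4, 0.066 without control 6, and 0.016, 0.011 and 0.078 without exposed array 2, 5 or 6.

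Aspa, which splits N-acetylaspartate in oligodendrocytes and so frees acetate that can enter lipids, had the largest lower value in size. It ran from 5.99 through 6.35 to 6.85 in controls and from 5.90 through 5.95 to 6.00 in exposed offspring. Controls 6, 2 and 5 stood at 6.85, 6.66 and 6.55, controls 1, 4 and 3 at 6.14, 6.15 and 5.99, and the groups overlapped only because control 3 lay below 2 exposed arrays. The difference was -0.44 (95% interval -0.70 to -0.17, limma adjusted p = 0.155), or 0.740 times the control level. Its unadjusted limma p stayed under 0.05 without any single array, at 0.00907 or less. Nat8l, the neuronal enzyme that makes N-acetylaspartate, was higher in value, by 0.19 (95% interval 0.06 to 0.32, limma adjusted p = 0.190).

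The control arrays were more spread than the exposed arrays for 9 of the 10 enzymes. The ratio of the control SD to the exposed SD was 8.71 for Aspa, 5.42 for Sptlc2, 3.68 for Cers2 and 3.62 for Elovl7, and 0.852 for Galc alone below 1. Its median over the enzymes was 2.31. Over all tested rows the median ratio was 1.14, and 59.5% of rows had the larger SD in controls. The 9 oligodendrocyte markers had the larger SD in controls too, all 9 of them, with a median ratio of 2.82. Control 6 held the highest control value for 8 of the 10 enzymes, and control 1 or 4 the lowest for 7. These ratios are descriptions, and no test of them was made.

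Within controls most pairs of enzymes had a positive correlation, although none of the 45 passed after adjustment. Of the 45 pairs of enzymes, the 36 that leave out Degs1 all had a positive correlation over the 6 control arrays, with a median Pearson r of 0.74, and the 9 pairs with Degs1 were all negative, with a median of -0.44. The strongest pair was Ugt8a with Galc (r = 0.95, rho = 1.0, exact permutation p = 0.00139 and 0.00278, 0.0625 and 0.107 adjusted over 45 pairs), and without the 2 arrays farthest from the median it was 0.99. The lowest was Degs1 with Sptlc2 (r = -0.89, exact permutation p = 0.0431, adjusted 0.149, and rho = -0.60, exact permutation p = 0.242, adjusted 0.363), and without the 2 farthest arrays it was 0.27, so it rests on controls 1 and 4. In exposed arrays the median r over the 45 pairs was -0.018 and 22 were positive, beside 36 positive and a median of 0.71 in controls, and 0 passed there either. There 6 of the 9 pairs with Degs1 were positive, with a median of 0.34, and the 36 others had a median of -0.053. Whether the groups differ in this was not tested.

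**Figure D3:**
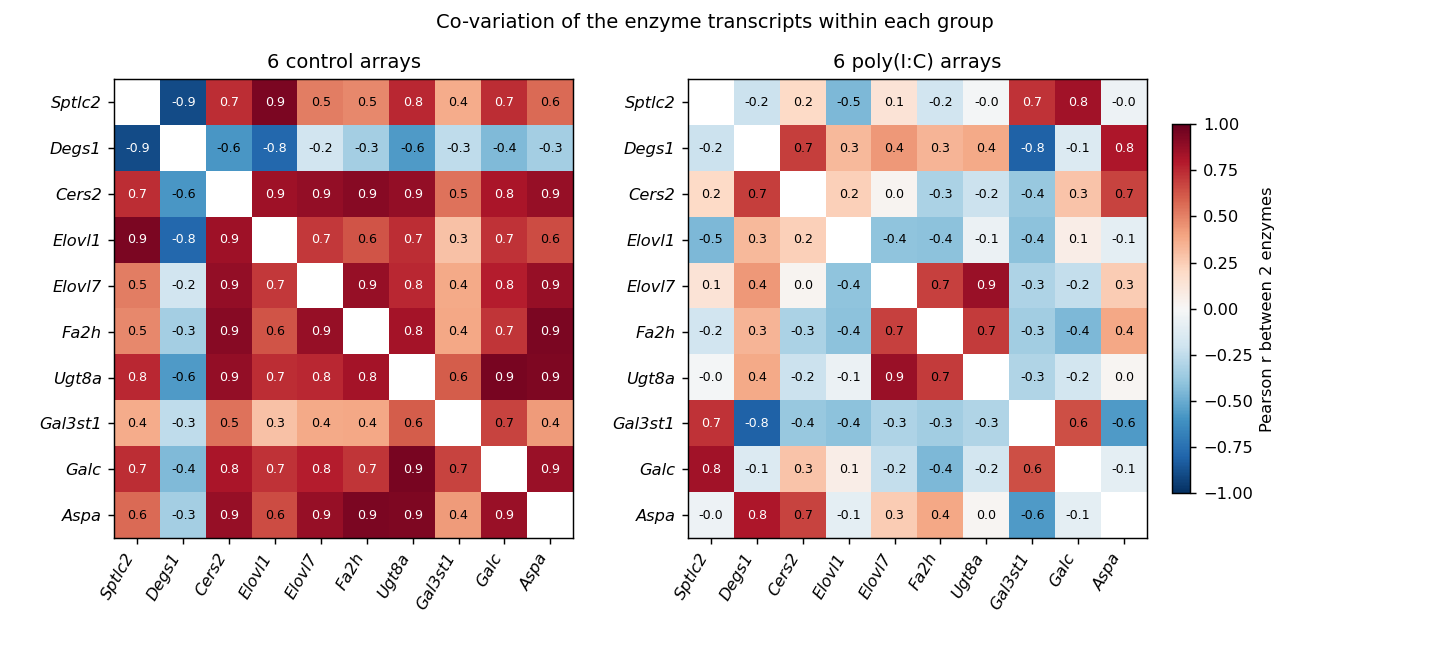
Pearson correlation between each 2 enzymes over the 6 control arrays (left) and the 6 exposed arrays (right), colour from -1 (blue) to 1 (red), with rounded values in the cells. In controls every cell is red except the row and column of Degs1, and in exposed arrays 22 of 45 pairs are positive.

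After each group was centred on its own mean, 36 of the 45 pairs stayed positive over the 12 arrays, again all those without Degs1. One pair passed after adjustment, Fa2h with Elovl7 (r = 0.78, permutation p = 0.000770, adjusted 0.0346, and rho = 0.76, permutation p = 0.00996, adjusted 0.0896), and r was 0.73 without the 2 farthest arrays. Other high pairs were Aspa with Cers2 (r = 0.85, permutation p = 0.0188, adjusted 0.106, rho = 0.88, permutation p = 0.0121, adjusted 0.0910) and Ugt8a with Aspa (r = 0.83, permutation p = 0.0235, adjusted 0.106, rho = 0.80, permutation p = 0.0457, adjusted 0.121). Between them in r came Elovl1 with Sptlc2 (r = 0.84, permutation p = 0.0190, adjusted 0.106, rho = 0.71, adjusted 0.105). So did Aspa with Elovl7 (r = 0.84, permutation p = 0.00600, adjusted 0.0900, rho = 0.77, adjusted 0.105). Degs1 with Sptlc2 was the lowest (r = -0.80, permutation p = 0.0335, adjusted 0.108, rho = -0.72, permutation p = 0.0396, adjusted 0.118), and r was -0.48 without the 2 farthest arrays. Without controls 4 and 6 the median r over all 45 pairs went from 0.49 to 0.30.

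Over the 12 group-centred arrays, 5 of the 10 enzymes followed the level of oligodendrocyte markers that are not lipid enzymes. They passed by both r and rho after adjustment over the 10, whereas no enzyme passed within the 6 exposed arrays alone. The marker level was the mean of the 9 measured genes Mobp, Mog, Mag, Cnp, Mal, Opalin, Cldn11, Ermn and Tspan2. It ran from 7.95 to 8.59 over control arrays and from 7.88 to 8.08 over exposed arrays, highest in controls 6, 2 and 5. Over the 12 group-centred arrays Cers2 followed it most closely (r = 0.95, permutation p = 0.000500, adjusted over 10 enzymes 0.00500, rho = 0.95, permutation p = 0.000510, adjusted 0.00510), and 0.033% of all tested rows had an r at least as high. Aspa (r = 0.88, permutation p = 0.0198, rho = 0.92, permutation p = 0.00657) and Ugt8a (r = 0.87, permutation p = 0.00364, rho = 0.92, permutation p = 0.00295) came next, with adjusted values of 0.0396 and 0.0164 for Aspa and 0.0182 and 0.0143 for Ugt8a. Elovl7 (r = 0.82, rho = 0.85) and Fa2h (r = 0.76, rho = 0.73) passed as well, with permutation p-values of 0.00962 and 0.00429 for Elovl7 and 0.0110 and 0.0156 for Fa2h, adjusted to 0.0276 and 0.0143, and to 0.0276 and 0.0312. The share of all tested rows with an r at least as high was 0.386% for Aspa, 0.419% for Ugt8a, 1.11% for Elovl7 and 2.74% for Fa2h.

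Without the 2 arrays farthest from the marker median these 5 correlations were 0.87 for Cers2, 0.83 for Aspa, 0.88 for Ugt8a, 0.62 for Elovl7 and 0.59 for Fa2h. Elovl1 (r = 0.72, permutation p = 0.0630, adjusted 0.0900), Sptlc2 (r = 0.66, permutation p = 0.133, adjusted 0.166), Galc (r = 0.56, permutation p = 0.0360, adjusted 0.0599) and Gal3st1 (r = 0.45, permutation p = 0.285, adjusted 0.317) were positive, and their r did not pass. Their rho values were 0.59, 0.64, 0.70 and 0.32, with permutation p-values of 0.121, 0.0866, 0.0207 and 0.405, adjusted to 0.151, 0.124, 0.0345 and 0.450, so that Galc passed by rho alone. An r at least as high as theirs was found in 3.97% of all rows for Elovl1, 6.4% for Sptlc2, 11.6% for Galc and 17.6% for Gal3st1. The value for Degs1 was negative and did not pass (r = -0.40, permutation p = 0.330, adjusted 0.330, rho = -0.27, permutation p = 0.495, adjusted 0.495). Its sign differed between the groups. Within controls r was -0.56 and rho -0.49 (exact permutation p = 0.242 and 0.356, adjusted 0.242 and 0.356), and within exposed arrays r was 0.71 and rho 0.94 (exact permutation p = 0.0792 and 0.0167, adjusted 0.396 and 0.167). Within controls alone Cers2 followed the markers at r = 0.98 and rho = 1.0 (exact permutation p = 0.00139 and 0.00278, adjusted 0.0139 and 0.0278). Within exposed arrays alone its r was 0.46 and its rho 0.71 (exact permutation p = 0.293 and 0.136, adjusted 0.664 and 0.340). There r was 0.73 for Ugt8a, 0.68 for Elovl7, 0.30 for Aspa and 0.24 for Fa2h. In controls their r was 0.91, 0.83, 0.90 and 0.94. No enzyme passed within exposed arrays, where the lowest adjusted exact permutation p was 0.396 for r and 0.167 for rho.

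**Figure D4:**
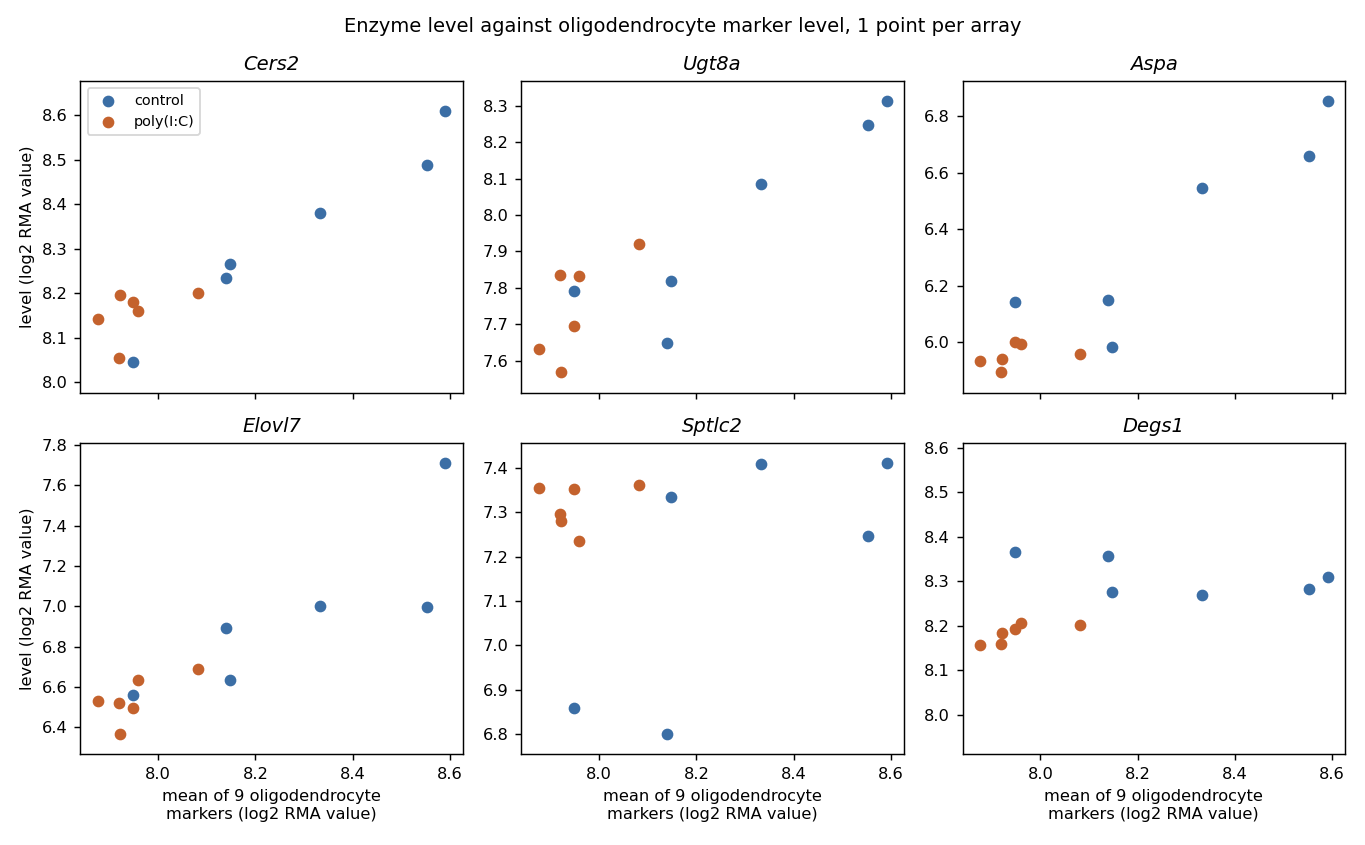
Level of 6 enzymes (log2 RMA value, vertical axis) against the mean of 9 oligodendrocyte markers (log2 RMA value, horizontal axis), with 1 point per array, controls in blue and exposed arrays in orange. Cers2, Ugt8a, Aspa and Elovl7 climb with the marker mean among controls, whereas the Degs1 groups lie at separate heights.

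The marker mean itself stood at 8.29 ± 0.25 for controls against 7.95 ± 0.07 for the exposed group (SD, n = 6 arrays each). Of its 9 genes all were lower in value, 7 had an unadjusted limma p under 0.05 and 1 fell over all genes, Mobp, a structural myelin protein gene with a difference of -0.51 (limma adjusted p = 0.0411). Opalin, an oligodendrocyte membrane protein gene, was at -0.57 (limma adjusted p = 0.0820). The median difference of the markers was -0.34, beside -0.12 for the enzymes. In whole tissue, fewer oligodendrocytes, less RNA of these genes per oligodendrocyte and a different share of surrounding tissue cannot be told apart.

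With the marker mean entered as a covariate, the differences of 6 of the 8 lower enzymes changed sign and 0 enzymes passed over all genes. Ugt8a went to 0.10, Cers2 to 0.068, Elovl7 to 0.018 and Aspa to -0.049, with limma adjusted p-values from 0.520 to 0.962. Degs1 kept its difference, at -0.15 (limma adjusted p = 0.126, unadjusted 0.00348), and Sptlc2 went to 0.37 (limma adjusted p = 0.133, unadjusted 0.00458). The marker mean correlated with the exposure group at -0.702 over the 12 arrays, so the 2 terms of this fit overlap.

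**Figure D5:**
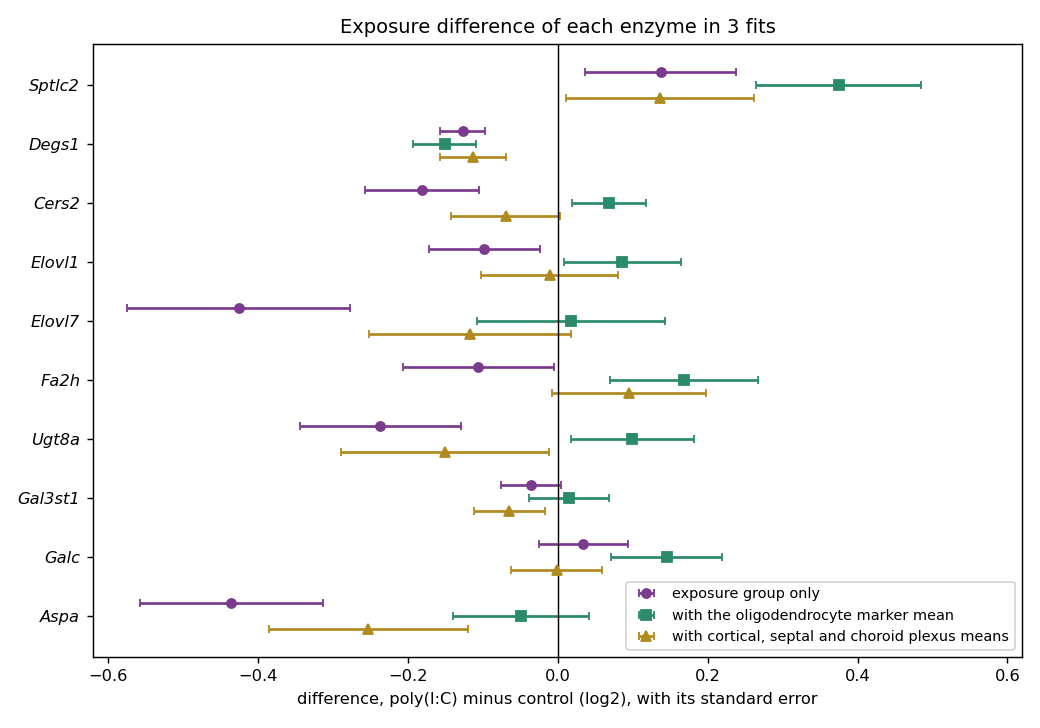
Difference of each enzyme, poly(I:C) minus control (log2, with its standard error), in the fit with the exposure group alone (purple circles), with the oligodendrocyte marker mean (green squares) and with the means of cortical, septal and choroid plexus markers (gold triangles). Degs1 stays between -0.15 and -0.11 in all 3 fits.

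Levels of markers of tissue around the accumbens also varied between these arrays and between the groups. The choroid plexus and ependymal mean was 5.57 in controls and 4.85 in the exposed group. The cortical mean was 5.63 and 6.18, and the septal, pallidal and diencephalic mean 6.06 and 5.94. Ttr, of the first list, had the lowest difference of all tested rows (-2.82, limma adjusted p = 0.151). Slc17a7, of the cortical list, had the highest (1.51, limma adjusted p = 0.257). The mean of 10 choroid plexus and ependymal markers ran from 4.87 to 6.87 in controls, with controls 6 and 4 highest at 6.87 and 6.25, and from 4.72 to 4.96 in exposed arrays. The mean of 7 cortical glutamatergic neuron markers ran from 5.15, in control 6, to 6.41 in controls and from 5.71 to 6.64 in exposed arrays. That of 6 septal, pallidal and diencephalic markers ran from 5.56 to 6.56 in controls and from 5.49 to 6.34 in exposed arrays. Of the 10 choroid plexus and ependymal markers all were lower in value (4 with an unadjusted limma p under 0.05), of the cortical markers 6 of 7 were higher (5 with such a p) and of the septal group 4 of 6 were lower (2 with such a p, and 1 of the higher ones), and 0 passed over all genes. Microglial markers had a mean of 6.44 in controls and 6.39 in the exposed group. Of these 7 markers 5 were lower in value, 2 of them with an unadjusted limma p under 0.05, and 0 passed over all genes. Medium spiny neurons make up most of the accumbens, and their markers were high in every array, with means of 6 genes from 9.13 to 9.76. With the 3 surrounding-tissue means as covariates Degs1 was at -0.11 and Aspa at -0.25, with limma adjusted p-values of 0.483 and 0.599 (unadjusted 0.0247 and 0.0806). Degs1 was the only enzyme with an unadjusted p under 0.05 in that fit, 1 of 10 where 9.37% of all rows had one, and the limma adjusted p-values over the enzymes ran from 0.483 to 0.998. Without both controls 4 and 6, 4 enzymes kept an unadjusted limma p under 0.05, beside 8.33% of all rows.

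Across the marker lists of 8 cell types or tissues, 4 of 80 relations with the enzymes passed by Pearson's r after adjustment over the 80, a comparison added after the data were seen. Galc followed the mean of 7 astrocyte markers (r = 0.89, permutation p = 3.0e-05, adjusted 0.00240, rho = 0.94, permutation p = 4.0e-05, adjusted 0.00320), and its r was 0.84 without the 2 farthest arrays. Elovl7 (r = 0.89) and Fa2h (r = 0.86) followed the mean of 7 oligodendrocyte precursor markers, each with an adjusted permutation p of 0.0348. Neither passed by rho (0.76 for both, adjusted permutation p = 0.0831 for both), and r was 0.85 for Elovl7 and 0.78 for Fa2h without the 2 farthest arrays. The fourth was Cers2 with the oligodendrocyte markers, given above (adjusted over the 80, 0.0200). For Ugt8a, Elovl7, Fa2h and Aspa with these markers r did not pass (adjusted permutation p = 0.0582, 0.0897, 0.0897 and 0.105). By rho but not r, Cers2 also followed the astrocyte markers (rho = 0.88, adjusted permutation p = 0.0283, r = 0.74, adjusted 0.105). Ugt8a with oligodendrocyte markers and Aspa with cortical markers also passed by rho alone (0.92 and -0.78, adjusted permutation p = 0.0472 for both). Astrocyte markers themselves showed little difference between groups (8.48 ± 0.19 and 8.50 ± 0.12, SD, n = 6 arrays per group). Of the 7 precursor markers 6 were lower in value, 5 of them with an unadjusted limma p under 0.05, and 0 passed over all genes. Among them Bcas1, expressed as myelination starts, was at -0.32 and the lineage factor Sox10 at -0.20 (limma adjusted p = 0.0791 and 0.0820). Pdgfra was the higher one, at 0.07 (limma adjusted p = 0.751). The list also holds the lineage factors Olig1 and Olig2, so it is not limited to precursors.

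By a fixed rule, the genes outside the group whose centred pattern over the 12 arrays was most like the mean of the 10 enzymes were sought among 9317 genes above the median level. They were the growth factor receptor gene Fgfr2 (r = 0.96, rho = 0.97), the transferrin gene Trf (r = 0.96, rho = 0.97), Otud7b (r = 0.96, rho = 0.88), the adaptor protein gene Gab1 (r = 0.96, rho = 0.97) and Olfml1 (r = 0.95, rho = 0.89). They are the extremes of a search, so no p is given. Within controls their r was 0.97 to 0.99, and within exposed arrays it was 0.82, 0.87, 0.60, 0.66 and 0.50 in the same order. Degs1 itself had an r of -0.36 to the mean of the enzymes and Gal3st1 one of 0.52, beside 0.69 to 0.92 for the others. Gab1 ran from 7.64 to 8.02 in controls and from 7.48 to 7.58 in exposed arrays, without overlap, a difference of -0.27 (limma adjusted p = 0.0926). Trf had a difference of -0.28 (limma adjusted p = 0.279) and Fgfr2 one of -0.10 (limma adjusted p = 0.641).

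The wider pathway lists had small median differences, and 29.6% of the measured genes of each were lower in value. Over all tested rows 49.1% were lower in value, 14.4% had an unadjusted p under 0.05, and the median difference was 0.0016, or 0.022 over rows above the median level, where 21 of the sphingolipid and 24 of the fatty acid genes lie. Of 27 other measured genes of sphingolipid synthesis and turnover, 19 were higher and 8 lower in value, with a median difference of 0.03. By limma 0 passed over all genes, and at an unadjusted p under 0.05 there were 2 higher and 1 lower. The higher ones were Smpd1, the acid sphingomyelinase gene (difference 0.12, limma adjusted p = 0.178), and Cers5, a ceramide synthase for shorter chains (0.10, limma adjusted p = 0.302). The lower one was Sgms2, a sphingomyelin synthase gene (-0.33, limma adjusted p = 0.193), which was brightest in control 6 at 5.30, the array with the highest choroid plexus mean, and whose mean level of 4.83 in controls lay under the median level of all rows.

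Of 27 other measured genes of fatty acid synthesis, elongation and acetyl supply, 19 were also higher and 8 lower in value, with a median difference of 0.03. By limma 0 passed over all genes, and 3 had an unadjusted p under 0.05, all higher. These were Nat8l, given above, Hacd2, the dehydratase of the elongation cycle (difference 0.18, limma adjusted p = 0.230), and Acsl4, an acyl-CoA synthetase gene (0.18, limma adjusted p = 0.317). Fasn, the fatty acid synthase gene, was at 0.06 (95% interval -0.02 to 0.14, limma adjusted p = 0.486). Whether these lists differ from the 10 enzymes was not tested.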

How the data were processed

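The authors deposited log2 values for 35556 probe sets on each array, made with RMA and Partek 6.6 per the submitters' processing notes. RMA usually forces the probe values of all arrays to 1 distribution before summarizing them, which can hide a change common to most genes. The labels state neither its settings nor a build. The log2 scale was read from the values (1.86 to 12.29, array medians 4.78 to 4.85). Per the labels' protocols, 250 ng RNA was labelled per array. Array pairs correlated at 0.991 to 0.997 and 0 pairs were identical. The number of arrays limits the precision.

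Rows were named from the platform annotation: 21218 carried 1 symbol and were tested, 1881 carried several and 12457 none. Each row was fitted with limma 3.58.1 (R 4.3.3, lmFit and eBayes, exposure group as the only term, 10 residual df and 3.94 prior df), two-sided, with Benjamini-Hochberg adjustment over all 21218 rows and a threshold of 0.05. The test was checked on simulated data. Correlations used Python 3.11.15 with all 720 orders at 6 arrays (exact) and 100000 permutations within group at 12, two-sided, each set adjusted over its own family. Genes outside the 10 were named by rule. These were the 4 smallest p of each wider list, the 2 of each marker list and the 5 most alike. For lists other than oligodendrocytes and their precursors, counts or means are given in place of the 2. Ttr and Slc17a7 are the exceptions, named for the lowest and highest difference of all rows. Olig1 and Olig2 are named as background and as parts of the precursor list, and Pdgfra as its higher member. Members, lists and alternatives were chosen with earlier results of these data known. Alternatives were another normalization, other row filters and limma settings, covariates, a replicate block and single arrays left out.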

Additional observations from a re-analysis of the deposited data

How the results depend on the processing

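The count of enzymes past the adjusted limma threshold was 0 in all 22 alternative settings, and 8 of 10 were lower in value in all but 2 of them (7 of 9 with dim rows left out, which removes Gal3st1, and 2 of 10 with the oligodendrocyte marker mean as covariate). The number with an unadjusted p under 0.05 was 3 with array medians subtracted (14.2% of all rows) and 2 with the oligodendrocyte marker mean as covariate (17% of all rows). It was 1 with the 3 surrounding-tissue marker means of cortex, septum and choroid plexus (9.37% of all rows). Without single arrays it was 3 to 6 (11% to 17.1% of all rows). The median difference over the enzymes turned to 0.077 with the oligodendrocyte marker mean, where Cers2 was at 0.068, Elovl1 at 0.086, Elovl7 at 0.018, Fa2h at 0.17, Gal3st1 at 0.015 and Ugt8a at 0.10. With the 3 tissue means Fa2h was at 0.10 and Galc at -0.0012. The cause was not tested.

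Rows past the adjusted threshold numbered 13 with all arrays, 38 after a repeated quantile normalization, 20 with dim rows left out, 140 with array weights, 2 with the oligodendrocyte marker mean, 1 with trend and robust, 0 with all rows of the table, with the 3 tissue means and without both controls 4 and 6, and 0 to 84 without single arrays. At an unadjusted p under 0.05 the rows numbered 1768 to 3634 in the settings over 21218 rows, and 4658 over all rows of the table. Subtracting array medians moved the lower share of rows with an unadjusted p under 0.05 from 45.6% to 33.9%.

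With a replicate block the rows past the threshold numbered 0, and 5 enzymes kept an unadjusted p under 0.05, beside 13.2% of all rows. Same-numbered arrays deviated with correlations from -0.201 to 0.269, and 2 of 12 arrays were closest to their own number. Over all rows the numbers thus gave no clear sign of pairing, but such correlations cannot exclude it.

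The median pair correlation in controls was 0.73 without the 2 farthest arrays and 0.48 without controls 4 and 6. In poly(I:C) arrays it was -0.13 without the 2 farthest. Group-centred it was 0.39 and 0.30. Averaging several rows of a gene was not run, since each enzyme has 1 row.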
